A study of Mus musculus with 12 samples.

Results

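Acod1, Calca, Il13ra2, Lrp2, Fst, Areg and Cyp26a1 are known from work on the mouse uterus as genes that progesterone switches on in the epithelium, and they act there as secreted signals, receptors and enzymes. They were taken by symbol from a table of 35896 genes, so 7 of 35896 genes are described here. The rule used their names and no value, but they were put forward with earlier results of these data known. All 7 were present in the table. Their levels are described over the 4 stages of the estrous cycle, as CPM (counts scaled to the size of each library) and with the limit of detection of each library.

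The samples were 12 whole uteri of wild-type Swiss Webster females, an outbred stock, aged 8 to 12 weeks and given no treatment that the labels name. Proestrus was represented by replicates 1, 2 and 3, estrus by replicates 3, 4 and 5, metestrus by replicates 5, 6 and 7, and diestrus by replicates 3, 4 and 5. Polyadenylated RNA was read at the 3' end of transcripts (3' TagSeq), without molecular identifiers, so every limit given here covers counting error only. The labels speak of triplicate samples for each stage and give no hormone level, staging method or animal number, so the p-values measure the spread between these samples.

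In the cycling mouse, ovulation at estrus is followed by corpora lutea that secrete progesterone through metestrus and diestrus, while estrogen peaks around proestrus. Progesterone acts through its nuclear receptor in the uterine epithelium, which answers with secreted factors that reach the stroma and the glands and prepare the tissue for an embryo. Most of what is known of the 7 genes comes from early pregnancy and hormone-treated mice, and an unmated cycle is a shorter exposure to the hormone.

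Fst, Lrp2, Il13ra2 and Acod1 were low in every proestrus and estrus uterus and higher in all 3 diestrus uteri. In diestrus Lrp2 averaged 38.8 ± 16.4 CPM, Fst 50.2 ± 40.4, Acod1 30.2 ± 28.4 and Il13ra2 11.6 ± 8.16 (mean ± SD, n = 3). The same 4 genes were also high in 1 of the 3 metestrus uteri, replicate 7. Areg was counted in the 3 diestrus uteri and in no other library. Cyp26a1 was near the limit of detection in 11 uteri and reached 114 CPM in metestrus replicate 7. Calca was counted 7 times in all 12 libraries together.

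**Figure D1:**
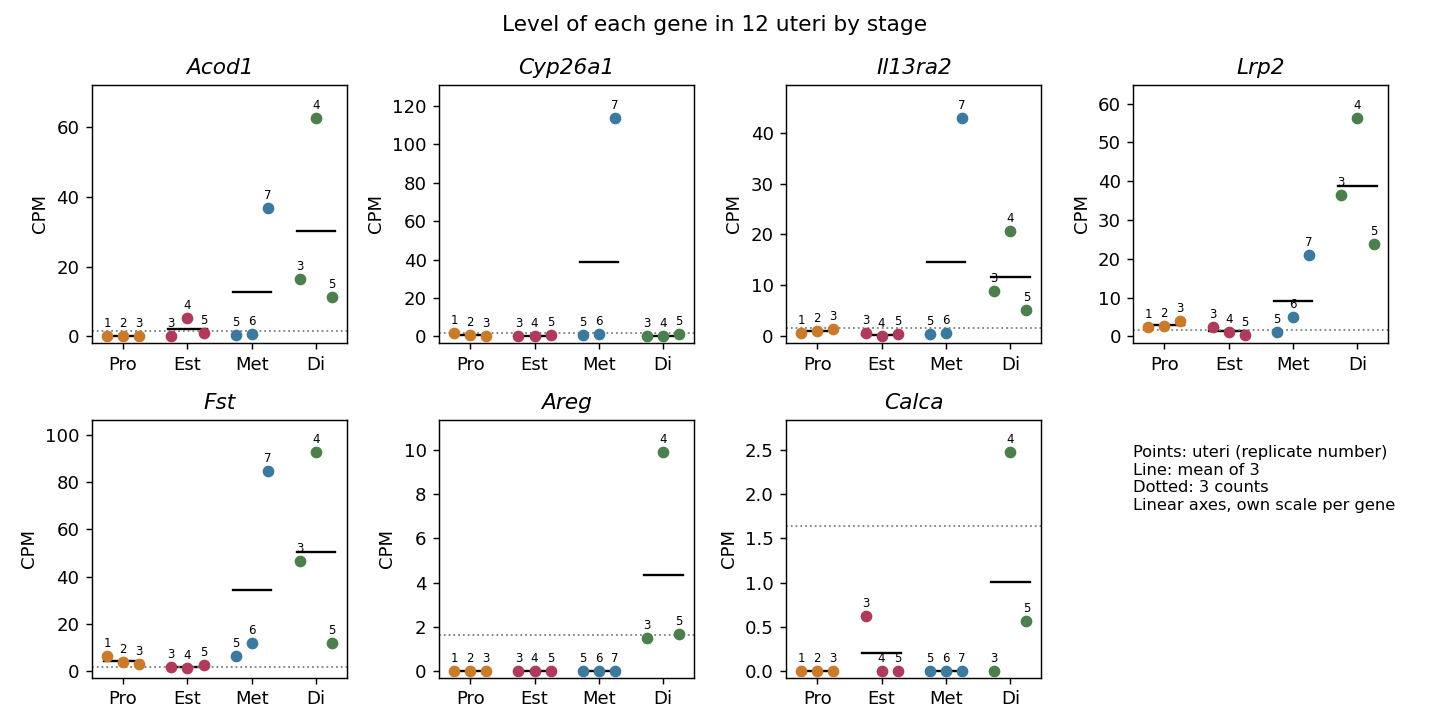
Each point is 1 uterus, marked with its replicate number, the vertical axis of each panel is CPM on a linear scale of its own, the black line is the mean of 3 and the dotted line is the mean level of 3 counts. Lrp2, Fst, Acod1 and Il13ra2 stand above all proestrus and estrus points in the 3 diestrus uteri, and Cyp26a1 has a single high point, 114 CPM in metestrus replicate 7.

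The libraries held 1652841 to 2200563 estimated counts, and 3 counts, taken as the limit of detection, came to between 1.37 and 1.89 CPM. Of the 35896 genes 12052 passed a filter on low counts, among them Acod1, Il13ra2, Lrp2 and Fst. The filter asks for a minimum level in as many libraries as a stage holds, and Acod1, Il13ra2 and Lrp2 met it only through libraries of diestrus and metestrus replicate 7, so their passing it is no evidence of a difference. Fst also met it in 3 of the other libraries. Stages were compared with the quasi-likelihood model of edgeR, every p was adjusted over the 12052 genes by the method of Benjamini and Hochberg, and an adjusted p under 0.05 was a call. Markers of the tissue were present: the summed levels of 5 stromal and of 5 smooth muscle genes lay between 3890 and 7050 CPM and between 4960 and 9450 CPM. Metestrus replicate 7 stood apart. It was the highest library for 1408 of the 12052 genes, the largest number of any library, and its levels of gland genes, given beside Cyp26a1, were far from those of the other uteri. By correlation of log2 CPM all 3 metestrus libraries were nearer to another stage than to one another: replicate 7 averaged 0.918 with diestrus and 0.904 with metestrus, replicate 6 0.935 and 0.909, and replicate 5 0.917 with estrus and 0.903 with metestrus. Member results are therefore also given without replicate 7 where leaving it out changes a call or a value by much. The tissue was whole uterus, so more cells of a type and more RNA per cell cannot be told apart.

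Among the secreted factors, Fst (follistatin, ENSMUSG00000021765, chr13:114452290-114458951, minus strand, GRCm38) encodes a protein that binds activins and keeps them from their receptors. Fst stood at 6.28, 3.77 and 3.05 CPM in proestrus replicates 1, 2 and 3. In estrus replicates 3, 4 and 5 it was at 1.86, 1.14 and 2.75 CPM. Metestrus replicates 5, 6 and 7 gave 6.22, 12.0 and 84.7 CPM. Diestrus replicates 3, 4 and 5 gave 46.4, 92.4 and 11.9 CPM. All 3 diestrus uteri and all 3 metestrus uteri lay above all estrus uteri, and the lowest diestrus uterus, replicate 5, lay just under the middle metestrus uterus.

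Fst differed over the 4 stages (edgeR F test, adjusted p = 0.0102, and 0.00065 without metestrus replicate 7). It was 26.2-fold higher in diestrus than in estrus, with a log2 difference of 4.63 ± 1.07 (SE; edgeR adjusted p = 0.00726) that passed in all 12 fits leaving out 1 library. Without diestrus replicate 4 the ratio of means was 15.2. Against proestrus it was 11.5-fold higher in diestrus, or 6.67-fold without diestrus replicate 4 (edgeR adjusted p = 0.0321 with all libraries), a call kept in 7 of 12 such fits and lost without any 1 of the 3 proestrus libraries or diestrus replicates 3 or 4, with adjusted p from 0.0618 to 0.133. The 17.9-fold higher mean of metestrus over estrus (edgeR adjusted p = 0.0411) rested on replicate 7: without it the metestrus mean fell from 34.3 ± 43.7 (SD, n = 3) to 9.11 CPM (2 uteri), the log2 difference was 2.17 ± 0.95 and the adjusted p 0.185. That call was also lost without any 1 of the proestrus or estrus libraries or diestrus replicate 3 (adjusted p from 0.0559 to 0.125). By limma-voom, which weighs low counts in another way, no Fst call was kept (adjusted p = 0.131 over the stages and 0.143 between diestrus and estrus).

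The longest coding Fst model held 336 of 509 counts, and a short model that retains an intron in the 3' part of the gene held 162. From proestrus to diestrus the coding model took 53.6%, 55.4%, 63.3% and 68.8% of counts and the short one 29.0%, 35.5%, 34.5% and 30.4%, although proestrus and estrus rest on 24 and 11 counts. Counts were thus assigned to both models in every stage. The models overlap and the assigned counts are estimates, so the split does not show that both transcripts were present. Of the 31-base stretches of Fst transcripts 2.25% also occur in transcripts of other genes, and an antisense gene overlaps the locus, so reads of that gene could not be told apart from Fst if strand was not used in counting.

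Areg (amphiregulin, ENSMUSG00000029378, chr5:91139599-91148432, plus strand, GRCm38) encodes a ligand of the EGF receptor that is shed from the cell surface, and it is an early progesterone-induced gene of the luminal epithelium in pregnancy. Its upstream sequence is shown because the gene was counted in a single stage. The 250 bases before its start (chr5:91139349-91139598, plus strand, GRCm38.p6, RefSeq) hold TGACGTCA, the core of the cyclic AMP response element, at -61 to -54 and TATAAA at -31 to -26, both in capitals:

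Areg: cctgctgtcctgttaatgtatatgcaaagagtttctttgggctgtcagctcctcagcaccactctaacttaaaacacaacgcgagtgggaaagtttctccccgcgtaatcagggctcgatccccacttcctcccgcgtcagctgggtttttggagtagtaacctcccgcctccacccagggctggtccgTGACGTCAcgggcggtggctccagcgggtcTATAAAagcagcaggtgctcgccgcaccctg

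Areg had 0 counts in each of the 9 libraries of proestrus, estrus and metestrus, metestrus replicate 7 included. A count of 0 allows up to 3 counts, or 1.37 to 1.89 CPM. Diestrus replicates 3, 4 and 5 held 3, 20 and 3 counts, or 1.5, 9.89 and 1.70 CPM. Areg was thus seen in every diestrus uterus, in replicates 3 and 5 only at the limit of detection. The diestrus mean of 4.36 ± 4.79 CPM (SD, n = 3) was at least 2.64-fold higher than estrus and at least 2.7-fold higher than proestrus, taking 3 counts per library as the upper limit for the empty stages. Both bounds rest on diestrus replicate 4, which held 76.9% of the counts, since replicates 3 and 5 did not exceed 3 counts. Areg did not pass the filter on low counts. In a fit without that filter the edgeR adjusted p of diestrus was 0.00704 against estrus, 0.0138 against proestrus and 0.0533 against metestrus. No stage difference is read from these values, since only diestrus replicate 4 exceeded 3 counts. The part of diestrus replicate 4 in these values was not tested.

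Calca (ENSMUSG00000030669, chr7:114631478-114636357, minus strand, GRCm38) encodes both calcitonin and, by alternative splicing, the neuropeptide CGRP, and calcitonin is a classical progesterone-induced product of the uterine glands in early pregnancy. It was counted once in estrus replicate 3, 5 times in diestrus replicate 4 and once in diestrus replicate 5, which makes 7 counts. The other 9 libraries had 0. Diestrus replicate 4, at 2.47 CPM, was the only library above 3 counts. Calca was not detectable at this depth in the other uteri, no difference between stages could be read from 7 counts, and the fit without the filter gave an adjusted p of 0.283 over the stages (edgeR F test). Of its 31-base stretches 1.97% are shared with Calcb, its close paralogue, which had 1 count.

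Of the receptors, Lrp2 (megalin, ENSMUSG00000027070, chr2:69424340-69586065, minus strand, GRCm38) encodes a very large endocytic receptor of the apical epithelial membrane that takes up carrier proteins with their vitamins, lipids and hormones. Lrp2 gave 2.28, 2.70 and 4.06 CPM in proestrus replicates 1, 2 and 3. Estrus replicates 3, 4 and 5 gave 2.47, 1.14 and 0.458 CPM. Metestrus replicates 5, 6 and 7 gave 1.04, 5.05 and 20.9 CPM. Diestrus replicates 3, 4 and 5 gave 36.4, 56.4 and 23.8 CPM. The 3 diestrus uteri were above all 9 others, and metestrus replicate 7 came next below them.

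Lrp2 differed over the stages (edgeR F test, adjusted p = 0.00123, and 4.48e-05 without metestrus replicate 7). It was 28.6-fold higher in diestrus than in estrus, with a log2 difference of 4.86 ± 0.80 (SE; edgeR adjusted p = 0.000872). Against proestrus diestrus was 12.9-fold higher (edgeR adjusted p = 0.00522). Each of these 3 calls was kept in all 12 fits that left out 1 library. The 4.32-fold higher level in diestrus than in metestrus did not pass (edgeR adjusted p = 0.169), although the groups did not overlap. Without metestrus replicate 7 the log2 difference to metestrus rose from 2.13 ± 0.60 to 3.72 ± 0.56 and passed (adjusted p = 0.0113).

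The full-length Lrp2 model held 268 of 298 counts. In diestrus and metestrus 6.68% and 8.0% of Lrp2 counts were assigned to 2 short coding models that end far upstream of the 3' end of the full-length one. In proestrus the share was 54.5%, of 17 counts, and in estrus 28.6%, of 7 counts. The low stages therefore rest on few reads, part of them away from the 3' end of the long transcript. TPM values divide each count by the transcript's length, so that a count on a short model weighs more. The deposited TPM of Lrp2 averaged 0.786, 0.194 and 3.05 in proestrus, estrus and diestrus, and counts rebuilt from TPM left Lrp2 under the filter.

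Il13ra2 (ENSMUSG00000031289, chrX:147383476-147429192, minus strand, GRCm38) encodes the decoy receptor for interleukin 13, which binds the cytokine tightly and carries no signalling domain of the usual kind. It was at 0.570, 1.08 and 1.52 CPM in proestrus replicates 1, 2 and 3. In estrus replicates 3, 4 and 5 it stood at 0.619, 0 and 0.458 CPM. Metestrus replicates 5, 6 and 7 gave 0.519, 0.631 and 42.9 CPM. Diestrus replicates 3, 4 and 5 gave 8.97, 20.8 and 5.09 CPM. All 8 uteri of proestrus, estrus and metestrus replicates 5 and 6 were at or under 3 counts, the diestrus uteri were all above it, and metestrus replicate 7 was the highest of the 12.

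Il13ra2 was at least 7.04-fold higher in diestrus than in estrus (edgeR adjusted p = 0.0474), and its F test gave an adjusted p of 0.0469. Without diestrus replicate 4 the bound was 4.27-fold. Both calls were kept in 3 of 12 fits leaving out 1 library, those without a metestrus library. They were lost without any 1 of the 9 proestrus, estrus and diestrus libraries, with adjusted p from 0.0533 to 0.134 against estrus and from 0.0548 to 0.113 over the stages. Neither call was kept by limma-voom (adjusted p = 0.105 and 0.128) or with counts rebuilt from TPM (0.0898 and 0.0977). Without metestrus replicate 7 both had smaller values (edgeR adjusted p = 0.000815 and 0.000803). Diestrus was then also higher than proestrus (adjusted p = 0.00524, against 0.155 with it) and higher than metestrus (adjusted p = 0.0494, against 0.937 with it). Of the 151 counts of Il13ra2, 92.6% were assigned to the shorter of its 2 models, which is annotated to start inside the gene, at 147403832 on chromosome X. The 2 models end at almost the same place, 147383476 and 147383478, and the reads came from 3' ends. The split of counts therefore does not show where the transcripts start.

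Of the enzymes, Acod1 (also known as Irg1, ENSMUSG00000022126, chr14:103046977-103056573, plus strand, GRCm38) encodes the mitochondrial enzyme that makes itaconate from cis-aconitate. It is best known from activated macrophages and is also a progesterone-induced gene of the luminal epithelium before implantation. Cyp26a1 (ENSMUSG00000024987, chr19:37697798-37701536, plus strand, GRCm38) encodes a cytochrome P450 that breaks down retinoic acid. Retinoic acid induces Cyp26a1, which limits the signal that called it up. The 250 upstream bases of both genes are shown, Acod1 as a member high in diestrus and Cyp26a1 as the member high in 1 uterus, with the found motifs in capitals (GRCm38.p6, RefSeq, plus strand, chr14:103046762-103047011 and chr19:37697558-37697807):

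Acod1: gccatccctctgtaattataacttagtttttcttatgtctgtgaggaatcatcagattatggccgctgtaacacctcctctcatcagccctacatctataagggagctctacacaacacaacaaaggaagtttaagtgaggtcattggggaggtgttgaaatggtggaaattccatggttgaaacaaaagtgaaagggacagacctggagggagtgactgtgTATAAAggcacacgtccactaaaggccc

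Cyp26a1: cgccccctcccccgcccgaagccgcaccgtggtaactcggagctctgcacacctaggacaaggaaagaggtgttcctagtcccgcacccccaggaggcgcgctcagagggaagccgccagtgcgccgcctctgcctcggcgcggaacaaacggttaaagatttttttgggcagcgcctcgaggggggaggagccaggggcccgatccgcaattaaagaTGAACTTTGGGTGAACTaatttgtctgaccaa

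The capitals in Acod1 are TATAAA at -28 to -23 from the RefSeq start. Those in Cyp26a1, at -32 to -16, are a direct repeat of AGTTCA with 5 bases between the copies, read on the minus strand (chr19:37697776-37697792). Both strands of the windows from 250 bases before to 50 after the start were searched for AGTTCANNNNNAGTTCA, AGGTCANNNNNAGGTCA, ACANNNTGT (the core of the element shared by progesterone and glucocorticoid receptors), GGTCANNNTGACC (the estrogen response element), TGACGTCA and TATAAA. The shares are over 32851 such windows of 27025 genes in RefSeq, not every chromosome included. The AGTTCA repeat was in 8 of these windows (0.0244%) and the AGGTCA repeat in 0.00913%. ACANNNTGT was in 6.85%, the estrogen response element in 0.07%, TGACGTCA in 1.79% and TATAAA in 13.6%. Of the 7 genes 6 had a window, all but Fst. ACANNNTGT, the estrogen response element and the AGGTCA repeat were in none of the 6. Il13ra2 has TATAAA at -31 to -26 and at -248 to -243, Cyp26a1 at 30 to 35 after its start, and Lrp2 and Calca have none of the motifs. A match is only a run of letters in the window.

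Acod1 had 0 counts in all 3 proestrus uteri. Estrus replicates 3, 4 and 5 gave 0, 5.15 and 0.916 CPM. Metestrus replicates 5, 6 and 7 gave 0.519, 0.631 and 37.0 CPM. Diestrus replicates 3, 4 and 5 gave 16.5, 62.8 and 11.3 CPM. The diestrus uteri were all above the highest estrus uterus, and metestrus replicate 7 lay within the diestrus range, while the other 2 metestrus uteri had 1 count each. Diestrus replicate 4 was 4.52 times the mean of the other 2 diestrus uteri.

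Acod1 was at least 18.7-fold higher in diestrus than in proestrus (edgeR adjusted p = 0.0375), and its F test gave an adjusted p of 0.039. Without metestrus replicate 7 these values were 0.00291 and 0.00167. Without diestrus replicate 4 the bound was 8.59-fold. The call against proestrus was kept in 6 of 12 fits leaving out 1 library and lost without any 1 of the proestrus libraries, estrus replicate 5, or diestrus replicates 3 or 4 (adjusted p from 0.0543 to 0.118). The F test call was kept in 4 of 12 and lost without any 1 of the proestrus or estrus libraries or diestrus replicates 3 or 4 (adjusted p from 0.0523 to 0.101). By limma-voom neither was kept (0.0979 against proestrus and 0.0501 over the stages), nor with counts rebuilt from TPM (0.121 and 0.129). Against estrus the mean was 14.9-fold higher in diestrus, which missed the threshold (log2 difference 3.88 ± 1.34, edgeR adjusted p = 0.0556). It passed in 3 of 12 fits leaving out 1 library, those without metestrus replicate 7 (adjusted p = 0.0063), 5 (0.0273) or 6 (0.0359), and not in the others, with values up to 0.215. Over those fits the log2 difference ran from 2.79 without diestrus replicate 4, where the ratio of means was 6.87, to 5.72 without estrus replicate 4. It did not pass with DESeq2 (0.175), and it passed in a fit of the 6 estrus and diestrus libraries alone (edgeR adjusted p = 0.00578).

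Because Acod1 is also a gene of activated myeloid cells, their markers are given beside it. The summed level of 5 macrophage genes (Adgre1, Csf1r, Cd68, C1qa and C1qb) was 172 to 215 CPM in proestrus, 394 to 432 in estrus, 249 to 390 in metestrus and 244 to 325 in diestrus. The sum of 6 neutrophil genes was 11.3 to 32.5, 25.4 to 74.4, 8.94 to 27.1 and 14.3 to 64.5 CPM in the same order. All of these genes had counts. The macrophage sum was highest in estrus, but single genes differed, and Adgre1 and C1qb had their highest library, 40.5 and 137 CPM, in metestrus replicate 7. Within diestrus the uterus with the most Acod1, replicate 4, had the lowest macrophage and neutrophil sums, 244 and 14.3 CPM. Within metestrus the only uterus above 1 count of Acod1, replicate 7, had the highest macrophage sum, 390 CPM, and the lowest neutrophil sum, 8.94 CPM. The part of these cells in the Acod1 values was not tested.

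Cyp26a1 had 3, 1 and 0 counts in proestrus replicates 1, 2 and 3, and 0, 0 and 1 in estrus replicates 3, 4 and 5. Metestrus replicates 5 and 6 had 1 and 2, and diestrus replicates 3, 4 and 5 had 0, 0 and 2. Metestrus replicate 7 had 191 counts, which is 114 CPM and 95.0% of all 201 counts. No stage as a group stood apart for Cyp26a1: 11 uteri were at or under 3 counts and 1 was far above. The gene did not pass the filter on low counts, and the adjusted p of 9.11e-07 over the stages in the fit without that filter (edgeR F test) rests on that 1 library.

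A search of all 35896 genes, with a rule chosen after Cyp26a1 had been seen, asked which genes had at least 50 counts in 1 library and at most 3 in each of the other 11. It found 2, Cyp26a1 and Prss28, both in metestrus replicate 7, and 0 for each other library. Prss28 encodes a serine protease of the uterine glands and had 130 counts there. It belongs to a list of 5 gland markers whose sum was 861 CPM in metestrus replicate 7, 12.4 and 22.7 CPM in the other 2 metestrus uteri, 0.539 to 4.56 in proestrus, 5.04 to 11.1 in estrus and 28.3 to 111 in diestrus. In replicate 7 Prss29, a second gland protease, was at 297 CPM and Spink1, a secreted protease inhibitor, at 479. Foxa2, the transcription factor that defines the glands, was at 4.77 CPM there against 7.92 to 14.8 in diestrus, and Cxcl15, a chemokine of the gland epithelium, at 2.98 against 17.5 to 41.9. The list was thus not raised as a whole in that uterus: 3 of its 5 genes were, and 2 were below their diestrus levels. Its part in the result was not tested.

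**Figure D2:**
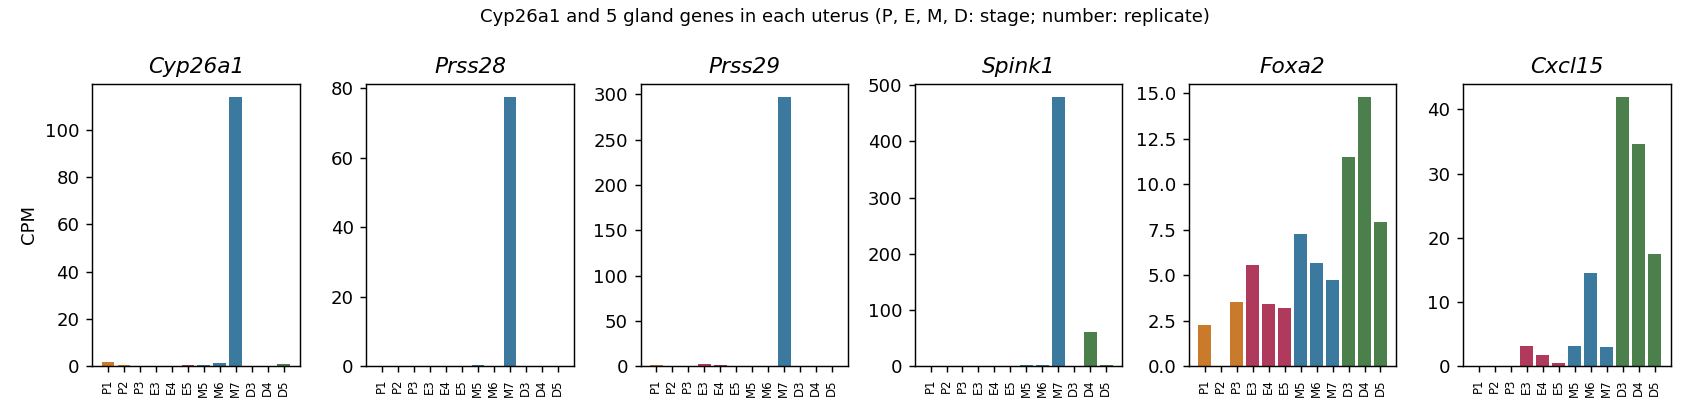
Bars give the CPM of 1 gene in each of the 12 uteri, labelled by the first letter of the stage and the replicate number, on linear axes that start at 0. Cyp26a1, Prss28, Prss29 and Spink1 have their highest bar in metestrus replicate 7, while Foxa2 and Cxcl15 are highest in diestrus.

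Over the 4 stages 4 of the 7 members were called (edgeR F test), where 23.2% of the 12052 genes tested were. Nothing is read from that pair of numbers, nor from the member counts that follow, since 3 members were not tested and 3 passed the filter only through the uteri in which they were high. Between diestrus and estrus 3 members were higher in diestrus, Fst, Lrp2 and Il13ra2, against 9.72% of genes called in that direction. Between proestrus and diestrus 3 were lower in proestrus, Fst, Lrp2 and Acod1, against 3.91% of genes. Fst alone was higher in metestrus than in estrus, against 2.83% of genes. No member was called between estrus and proestrus, where 17.1% of genes were, between diestrus and metestrus, where 0.224% were, or between metestrus and proestrus, where 4.31% were. At an edgeR p under 0.05 with no adjustment, Lrp2 passed between diestrus and metestrus, and no member between estrus and proestrus. Fst, Il13ra2 and Acod1 passed between metestrus and proestrus, but this rested on metestrus replicate 7. Without that library their edgeR adjusted p was 0.582, 0.792 and 0.67, and the log2 difference of Il13ra2 turned to -0.83. With adjustment limma-voom called 0 members in each of these 3 pairs, and DESeq2 called Acod1 between metestrus and proestrus (adjusted p = 0.0418) and no other. The adjusted calls make 7 of 42 combinations of member and stage pair, and 10 without metestrus replicate 7, where 10.1% and 10.8% of the combinations of tested gene and stage pair were called.

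Separation of the values is given as a description only, since Acod1, Il13ra2 and Lrp2 passed the filter only through uteri in which they were high. In 4 of the 7 members, Acod1, Il13ra2, Lrp2 and Fst, the 3 diestrus uteri lay above the 3 estrus and the 3 proestrus uteri. Each taken alone, these held for 20.6% and 14.9% of all tested genes, and the share for both together was not taken. Of the 4 members, Lrp2 also had all diestrus uteri above all metestrus uteri, as 6.97% of tested genes did. Areg, at 3 counts in 2 of the diestrus uteri, cannot be set apart from the libraries with 0.

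A contrast of metestrus and diestrus together against proestrus and estrus together was set to the stages in which corpora lutea are known to secrete progesterone. The labels give no hormone level. This contrast called 4 of the 7 members as higher in metestrus plus diestrus, against 6.1% of genes. For Lrp2 the log2 difference was 3.19 ± 0.57 and for Fst 3.80 ± 0.72 (SE; edgeR adjusted p = 0.00224 and 0.00345). Without metestrus replicate 7 these 2 remained (adjusted p = 0.00821 and 0.00527). Acod1 and Il13ra2 were called with that library (edgeR adjusted p = 0.0204 and 0.0156) and not without it (0.244 and 0.17), since their other metestrus uteri had 1 count each. Acod1 was also lost without estrus replicate 5 (adjusted p = 0.0536). By limma-voom only the call for Lrp2 was kept (0.0386; 0.111 for Fst).

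**Figure D3:**
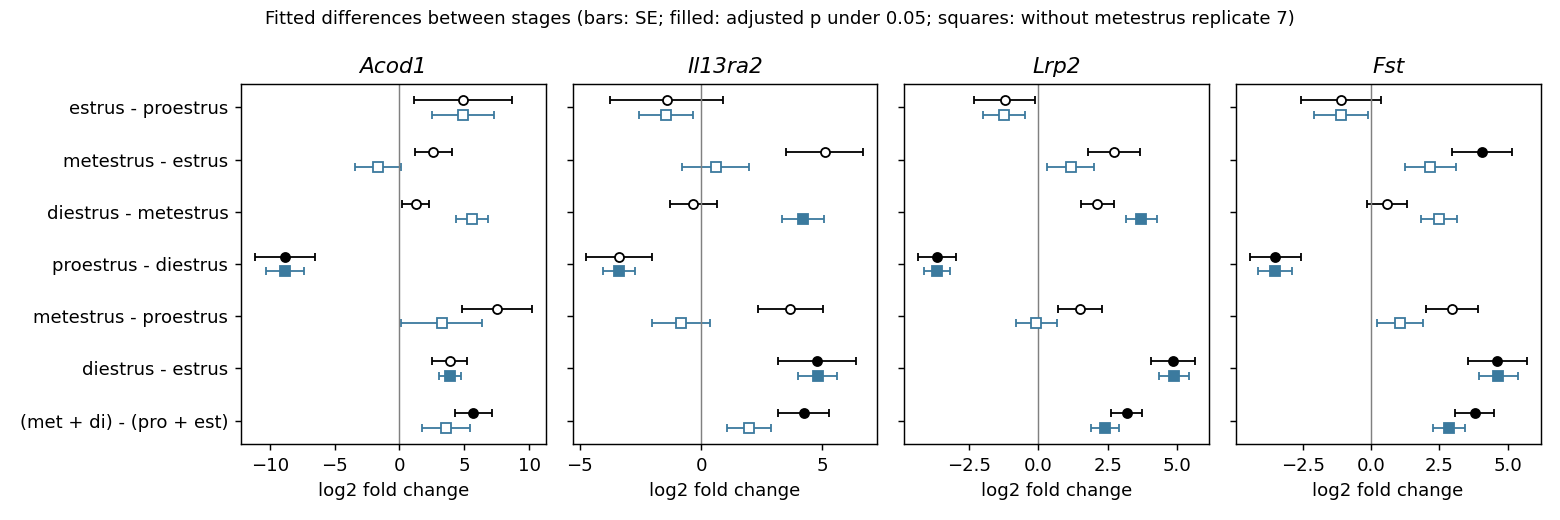
Points are fitted log2 differences (horizontal axis) for each pair of stages and for the combined contrast, bars are standard errors, filled symbols have an edgeR adjusted p under 0.05, circles use all 12 libraries and squares leave out metestrus replicate 7. For Lrp2 and Fst the combined contrast is filled with and without that library, for Acod1 and Il13ra2 only with it, and fitted values of Acod1 and Il13ra2 against stages at or under 3 counts depend on the small count added in the fit and are no fold changes.

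The uteri that held most counts of each member are given here as a description. No share over all genes was taken beside these values. Acod1, Il13ra2 and Lrp2 also passed the filter only through diestrus libraries and metestrus replicate 7, so no trait of the members is read from them. The 3 diestrus libraries and metestrus replicate 7 together held 94.9% of the counts of Acod1, 93.4% of Il13ra2, 88.6% of Lrp2, 87.0% of Fst and all counts of Areg. Diestrus replicate 4 was the highest diestrus uterus for each of Acod1, Il13ra2, Lrp2, Fst, Areg and Calca. It stood at 6.19 times the mean of the other 2 diestrus uteri for Areg, 3.17 times for Fst, 2.95 times for Il13ra2 and 1.87 times for Lrp2. The genes did not share metestrus replicate 7 alike: it was the highest of all libraries for Il13ra2 and Cyp26a1, the second highest for Acod1 and Fst, below all diestrus uteri for Lrp2, and at 0 for Areg and Calca.

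**Figure D4:**
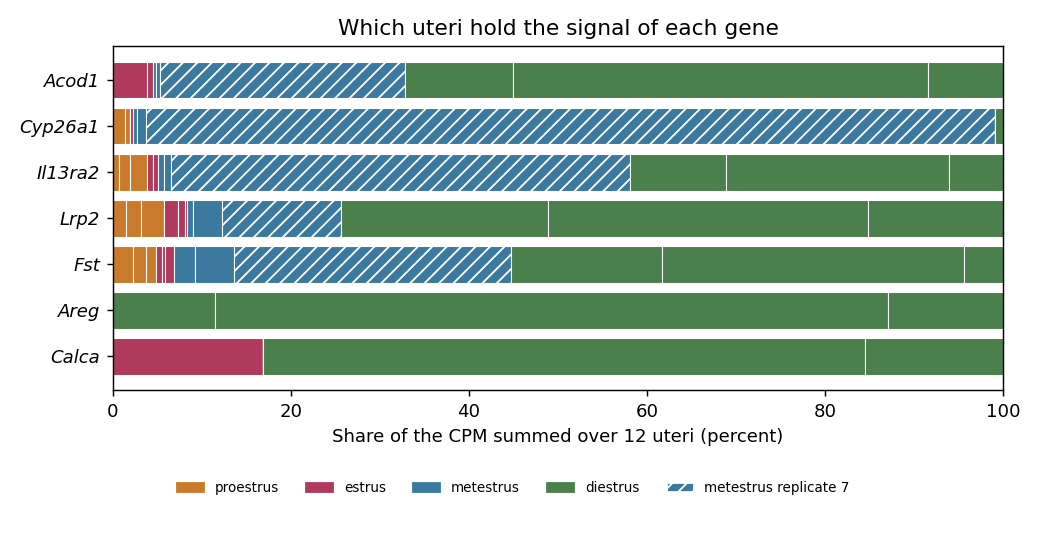
Each bar splits the CPM of 1 gene, summed over the 12 uteri, into the share of each uterus in percent, coloured by stage, with metestrus replicate 7 hatched. Diestrus and metestrus replicate 7 fill most of each bar, except that Cyp26a1 is almost all metestrus replicate 7 and Calca, with 7 counts, has a share in estrus.

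Over the 12 libraries the log2 CPM of the 4 tested members correlated with one another between 0.826 (Acod1 with Fst) and 0.92 (Il13ra2 with Fst) (Pearson's r, n = 12; the points share the stages). Without metestrus replicate 7 the values ran from 0.774 to 0.956. Among all tested genes the pattern of Acod1 was nearest to those of Asl, an enzyme of arginine synthesis (r = 0.966), Col23a1, a membrane collagen (0.961), and Ebf1, a transcription factor (0.957). For Il13ra2 they were Hopx, a homeodomain protein without DNA binding of its own (0.977), Slc5a11, a sodium-coupled inositol transporter (0.956), and Cited4, a transcriptional cofactor (0.94). For Lrp2 they were Fbln5, an elastic fibre protein (0.975), Hdc, which makes histamine (0.948), and Pnpt1, a mitochondrial RNA exonuclease (0.946). For Fst they were Cited4 (0.959), Mta1, a chromatin remodelling subunit (0.935), and Zbtb16, a progesterone- and glucocorticoid-responsive transcription factor (0.935). Slc5a11 averaged 0 and 0.191 CPM in proestrus and estrus, 11.9 in metestrus and 12.0 in diestrus, with 34.6 in metestrus replicate 7. Zbtb16 likewise stood at 56.6 CPM in that uterus, against a diestrus mean of 22.1. These likenesses are descriptions over 12 libraries of 4 stages, and without metestrus replicate 7 the same pairs had r from 0.914 to 0.975.

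Around Areg, in EGF receptor signalling, 4 of 5 tested genes were called over the stages, where 23.2% of all tested genes were. In diestrus against estrus 3 were lower and 0 higher, where 13% and 9.72% of all tested genes were. Egfr, the receptor of amphiregulin, rose from 15.7 ± 3.54 CPM in proestrus to 29.8 ± 2.79 in estrus (edgeR adjusted p = 0.019), and in diestrus it was at 42.6 ± 3.40, above proestrus (adjusted p = 0.00209). Egfr was at 39.9, 41.5 and 46.4 CPM in the 3 diestrus uteri in which Areg was counted. It was also at 39.9 CPM in metestrus replicate 7, where Areg had 0 counts. Between diestrus and estrus Egfr was not called (edgeR adjusted p = 0.104, and 0.0444 without metestrus replicate 7). Hbegf, another ligand of that receptor, had its highest level in estrus, 35.3 ± 1.83 CPM, and fell to 10.7 ± 3.06 in diestrus (log2 difference -1.73 ± 0.37, edgeR adjusted p = 0.00499). The co-receptors Erbb3 and Erbb2 were also lower in diestrus than in estrus, by -2.06 ± 0.42 and -0.95 ± 0.26 on the log2 scale (edgeR adjusted p = 0.00337 and 0.0167). Hbegf was called the opposite way to Fst and Lrp2 in the same pair of stages.

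Around Fst, in activin signalling, 2 of 8 tested genes were called over the stages (1 without metestrus replicate 7, when Acvr1b was at an edgeR adjusted p of 0.0644), a share near the 23.2% of all tested genes. In diestrus against estrus 3 were lower, where 13% of all genes were, and 0 higher. Inhbb, the activin B subunit that follistatin can bind, was at 287, 225 and 232 CPM in proestrus. In estrus it was at 76.1, 77.8 and 61.8 CPM, in metestrus at 27.5, 135 and 23.3, and in diestrus at 22.9, 5.93 and 1.70. Inhbb was thus highest where Fst was low, and the diestrus uteri were below all others. Diestrus was lower than estrus by -2.78 ± 0.69 on the log2 scale (edgeR adjusted p = 0.0105). Inhba, the activin A subunit, was at 14.4 ± 6.40, 7.34 ± 3.89, 13.6 ± 10.2 and 7.28 ± 3.06 CPM through the cycle and was not called (adjusted p = 0.362). Acvr1b, an activin type I receptor, was lower in diestrus than in estrus (-1.09 ± 0.32, edgeR adjusted p = 0.0267).

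Around Calca, the calcitonin receptor gene Calcr had 1 count in all libraries. Calcrl, which with Ramp1 forms the CGRP receptor, was detected in every library and highest in metestrus, 30.7 ± 6.17 CPM. Of 6 tested genes of this list 5 were called over the stages, where 23.2% of all tested genes were. In diestrus against estrus 0 were higher and 1 lower, where 9.72% and 13% of all tested genes were. Ramp1 was at 24.2 ± 8.82 CPM in proestrus and 75.5 ± 4.22 in estrus (edgeR adjusted p = 0.0109), and in diestrus it reached 106 ± 40.8, above proestrus (adjusted p = 0.00357). Ramp2, which with Calcrl forms an adrenomedullin receptor, was higher in proestrus than in estrus and diestrus (adjusted p = 0.0223 and 0.0195). Adm itself, the vasodilator adrenomedullin, peaked in estrus at 24.6 ± 1.20 CPM and was lower in diestrus (log2 difference -1.27 ± 0.25, edgeR adjusted p = 0.00282).

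Interleukin 13 itself had 0 counts in all 12 libraries, so the ligand of Il13ra2 was not detectable at this depth. Of 5 tested genes of its signalling 3 were called over the stages, where 23.2% of all tested genes were. In diestrus against estrus 3 were lower and 0 higher, where 13% and 9.72% of all tested genes were. Il13ra1, the signalling receptor chain, fell from 58.3 ± 5.99 CPM in estrus to 17.6 ± 1.19 in diestrus (log2 difference -1.73 ± 0.19, edgeR adjusted p = 6.43e-05). Il4ra, the chain it pairs with, was at 122 ± 20.8 CPM in proestrus and 43.1 ± 13.2 in diestrus (adjusted p = 0.00215). The signalling chains were thus lower in the stage where the decoy receptor was detected. Chil1, a chitinase-like protein reported to bind the decoy receptor, was at 20.4, 343 and 92.5 CPM in estrus and at or under 2 counts in each diestrus uterus (edgeR adjusted p = 0.000474), and at 5.37 CPM in metestrus replicate 7. Il13ra2 and Chil1 were high in different uteri.

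Cubn and Amn, which form the cubilin complex that works with megalin in other epithelia, had 1 and 4 counts in all. Of 4 tested megalin partners 2 were called over the stages, where 23.2% of all tested genes were. In diestrus against estrus 1 was higher and 1 lower, where 9.72% and 13% of all tested genes were. Lrpap1, the chaperone that escorts megalin through the secretory pathway, rose with Lrp2 from 74.2 ± 17.3 CPM in estrus to 134 ± 41.2 in diestrus (log2 difference 0.85 ± 0.21, edgeR adjusted p = 0.0105), and its highest uterus was diestrus replicate 4, at 181 CPM. Clu, a secreted chaperone that megalin takes up, fell from 254 ± 67.1 CPM to 60.2 ± 15.7 between the same stages (log2 difference -2.08 ± 0.32, edgeR adjusted p = 0.00063).

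Genes that handle retinoic acid, the substrate of Cyp26a1, changed in both directions. Of 10 tested genes 8 were called over the stages, where 23.2% of all tested genes were. In diestrus against estrus 4 were higher and 3 lower, where 9.72% and 13% of all tested genes were. Aldh1a2, which makes retinoic acid, was highest in proestrus, 109 ± 5.54 CPM, and lowest in estrus, at 17.3, 22.3 and 23.4 CPM (log2 difference -2.37 ± 0.27, edgeR adjusted p = 0.00026). Aldh1a1 followed the same course, 55.8 ± 16.1 and 9.75 ± 1.48 CPM (adjusted p = 0.00195). Stra6, the membrane receptor that takes up retinol, was at 4.33, 2.86 and 2.29 CPM in estrus and at 38.9, 20.8 and 102 in diestrus (log2 difference 4.09 ± 0.56, edgeR adjusted p = 0.000274). Stra6 was above all proestrus and estrus uteri in each metestrus and diestrus uterus, and at 18.5 CPM in metestrus replicate 7 it did not share the burst of Cyp26a1. Rara, a retinoic acid receptor, fell from 56.9 ± 4.97 CPM in proestrus to 28.9 ± 2.17 in diestrus (adjusted p = 0.00162). Cyp26b1, the related enzyme, had 71 counts and a highest level of 6.86 CPM, in estrus replicate 4.

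Around itaconate, 2 of 7 tested genes were called over the stages, and 0 were higher and 1 lower in diestrus than in estrus, shares near the 23.2% and 13% of all tested genes. Nfe2l2, the transcription factor NRF2 that itaconate can activate, fell from 170.0 ± 17.1 CPM in estrus to 86.4 ± 9.81 in diestrus (log2 difference -0.97 ± 0.16, edgeR adjusted p = 0.00096). Sdhb, a subunit of succinate dehydrogenase, the enzyme that itaconate inhibits, was lower in estrus than in proestrus (-0.57 ± 0.16, edgeR adjusted p = 0.0281). Both differences were under 1 log2 unit.

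**Figure D5:**
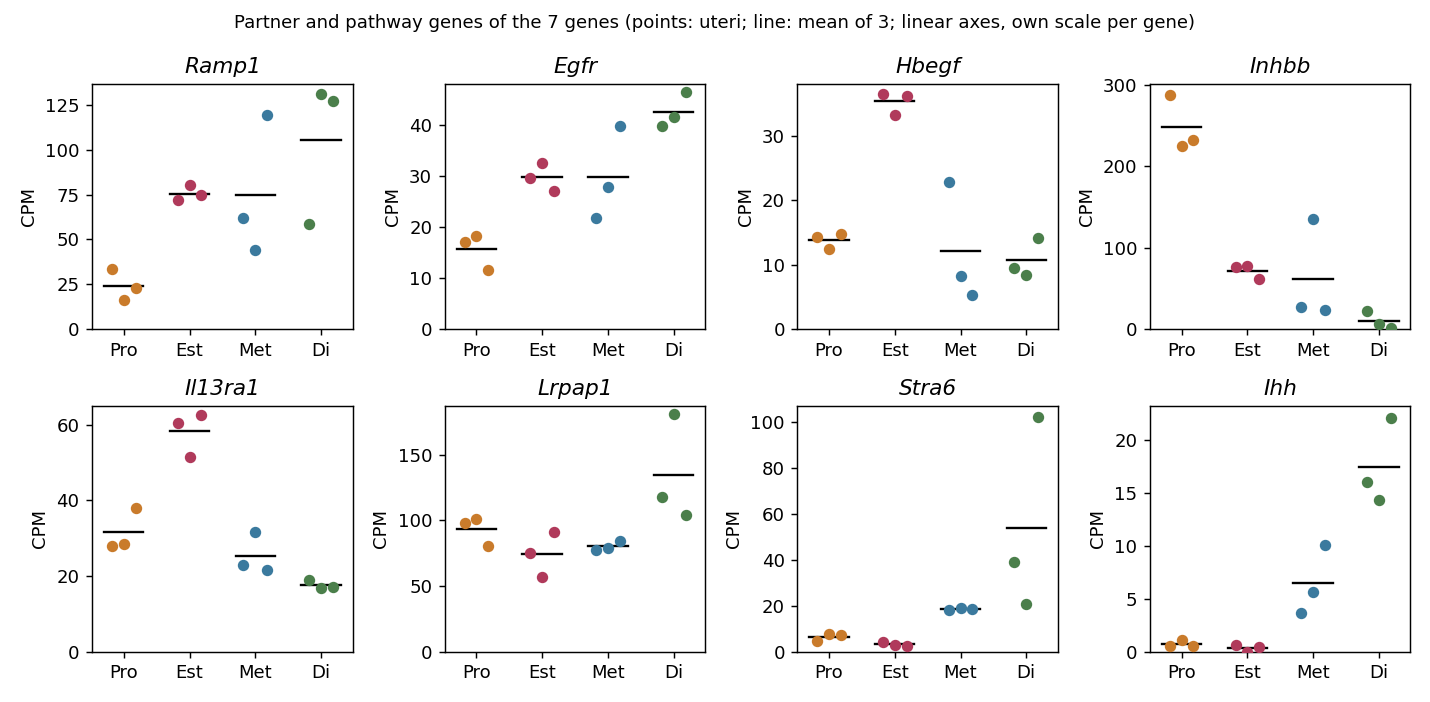
Points are uteri, lines are means of 3, and each panel has its own linear CPM axis that starts at 0. Egfr, Lrpap1, Stra6, Ramp1 and Ihh have their highest mean in diestrus, Hbegf and Il13ra1 in estrus, and Inhbb in proestrus.

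Other genes of the progesterone response were also higher in diestrus than in estrus, though not all of them were low in proestrus. Of 18 tested genes of this list 15 were called over the stages, where 23.2% of all tested genes were. In diestrus against estrus 14 were higher and 0 lower, where 9.72% and 13% of all tested genes were. The median log2 difference was 1.53, against 0.0 over all tested genes. This list was chosen with earlier results of these data known, so nothing is read from its counts. Ihh (Indian hedgehog), which carries the progesterone signal from epithelium to stroma, was at 0.619, 0 and 0.458 CPM in estrus and 16.0, 14.3 and 22.1 in diestrus (edgeR adjusted p = 8.24e-05). Gli1, its target in the stroma, was at 2.67 ± 0.83 and 38.3 ± 3.01 CPM (adjusted p = 1.1e-05). Ihh and Gli1 also stood above all proestrus and estrus uteri in metestrus replicates 5 and 6, with 3.63 and 5.68 CPM of Ihh and 15.0 and 18.3 CPM of Gli1, where Acod1 and Il13ra2 had 1 count each. Sox17, an epithelial transcription factor upstream of Ihh, and Hoxa10, a stromal homeobox gene, were higher in diestrus than in estrus by 1.59 ± 0.15 and 1.84 ± 0.19 on the log2 scale (edgeR adjusted p = 1.63e-05 and 3.58e-05). The receptor gene Pgr, named after its values were seen, was at 77.9, 71.5 and 81.1 CPM in estrus and 307, 164 and 173 in diestrus (adjusted p = 0.00212). In proestrus Pgr was as high, at 271, 221 and 282 CPM, where the members were low.

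Most genes of a list that estrogen induces were lower in diestrus than in estrus. Of 8 tested 7 were called over the stages, where 23.2% of all tested genes were. In diestrus against estrus 7 were lower and 0 higher, where 13% and 9.72% of all tested genes were, with a median log2 difference of -4.81. This list too was chosen with earlier results of these data known, so nothing is read from its counts. Greb1 was not called between diestrus and estrus (-0.39 ± 0.37, edgeR adjusted p = 0.49), and its highest mean was in proestrus, 46.5 CPM. Lcn2 (lipocalin 2) was at 4220 ± 979 CPM in estrus and 29.0 ± 16.2 in diestrus, and Sprr2f, a cornified envelope protein, at 2510 ± 150.0 and 103 ± 28.8 (edgeR adjusted p = 0.000236 and 0.00081). In metestrus replicate 7 Lcn2 was at 42.3 CPM, against 976 and 167 in the other 2 metestrus uteri, and Sprr2f at 28.6 against 638 and 161. In that uterus Lcn2 was thus just above its diestrus range and Sprr2f below it. Padi1 and Muc1, an arginine deiminase and a cell surface mucin, fell between estrus and diestrus by -5.35 ± 0.37 and -2.83 ± 0.42 on the log2 scale (edgeR adjusted p = 3.08e-06 and 0.000461).

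General epithelial markers moved against the members. The summed level of Epcam, Krt8, Krt18, Krt19 and Cdh1, all 5 detected, was 1130 to 1490 CPM in proestrus, 1120 to 1410 in estrus, 458 to 922 in metestrus and 455 to 639 in diestrus. Metestrus replicate 7 had the lowest metestrus sum, 458, and diestrus replicate 4, the uterus with the most Acod1, Lrp2, Fst and Areg, the lowest sum of all, 455. Of the 5 gland markers, Foxa2 and Cxcl15 ran the other way, at 7.92 to 14.8 and 17.5 to 41.9 CPM in diestrus. In proestrus and estrus they were at most at 5.57 and 3.09 CPM. Prss28 and Prss29 did not, at 0 and at most 0.499 CPM in diestrus. The gland sum was 28.3 to 111 CPM in diestrus against 0.539 to 11.1 in proestrus and estrus. Its highest diestrus value, in replicate 4, held 61.3 CPM of Spink1, which was at 0.997 and 2.83 in replicates 3 and 5. The gland sum was highest of all, 861, in metestrus replicate 7. The part of epithelial or gland cell number in the members' levels was not tested. Markers that would point to attached tissue were low. Krt6a was at 0 and the other 4 of 5 stratified squamous genes gave sums of 0 to 3.42 CPM. Of 5 ovarian genes 3 were above 3 counts in some library, with sums of 10.1 to 26.5 CPM, mostly Star, and of 4 genes of ciliated oviduct 3 were, with sums of 6.92 to 50.1 CPM, mostly Ovgp1 and highest in estrus. The part of such tissue was not tested either.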

How the data were processed

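RNA of 12 uteri was profiled by 3' TagSeq. The authors deposited, per sample, estimated counts per transcript, their TPM values and effective lengths in bases, per the file headers; kallisto is named in the submitters' processing notes, while the transcript set, strand setting and options are not given in the sources used here. Of 119414 transcripts 116640 (97.68%) matched GENCODE M21 (GRCm38) by identifier, and the rest, 0.619% to 0.774% of each library's counts, was left out.

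Estimated counts were summed over each gene's transcripts and rounded. After filterByExpr by stage, 12052 of 35896 genes were fitted in edgeR 4.0.16 (R 4.3.3) with TMM factors (0.908 to 1.05), its quasi-likelihood fit on the 4 stages, and Benjamini-Hochberg adjustment over all genes tested. The biological coefficient of variation was 20.6%, and the procedure was tested on simulated data. CPM values use the TMM factors, log2 CPM a prior count of 2, and 3 counts per library are the detection limit. Folds are ratios of mean CPM. Library totals ran from 1652841 to 2200563.

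All 7 members are named; members under the filter are tested only without it. Named beside them are the 3 tested genes most correlated with each tested member, per list of related genes at most 4 called genes with the smallest F test p, and genes that a member binds or acts on. The members and lists were chosen with earlier results of these data known. Promoter windows came from RefSeq (GRCm38.p6). Alternatives were other scaling (DESeq2 1.42.0 size factors, library totals), other filters, DESeq2, limma-voom (limma 3.58.1), counts rebuilt from TPM, each library left out, 6 samples alone and a replicate block.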

Additional observations from a re-analysis of the deposited data

How the results depend on the processing

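The 4 members called over the stages and the 7 combinations of member and stage pair rest on few counts. Limma-voom and counts rebuilt from TPM each called 1 member over the stages, 2 combinations, and 1 and 2 members in the contrast of metestrus plus diestrus against proestrus plus estrus (reported count 4). Between diestrus and estrus (reported count 3) each called 1. Without the filter on low counts the combinations were 20 and the diestrus against estrus count 5. Leaving out 1 library gave 2 to 4 members over the stages, 3 to 12 combinations, 2 to 4 members in the contrast (2 without metestrus replicate 7) and 2 to 4 between diestrus and estrus. The count over the stages was 2 without any 1 of the proestrus or estrus libraries or diestrus replicates 3 or 4. The combinations were 3 without any 1 of the proestrus libraries or diestrus replicate 3, 4 without estrus replicate 5 or diestrus replicate 4, 12 without metestrus replicate 5 and 11 without metestrus replicate 6. The cause was not tested, beyond that fewer samples or genes enter these fits.

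Signs turned in 5 differences, none of them a call as reported. Leaving out 1 library gave log2 differences from -1.67 (without metestrus replicate 7) to 4.45 for Acod1 between metestrus and estrus. Between metestrus and proestrus they ran from -0.83 to 4.27 for Il13ra2 and from -0.07 to 2.08 for Lrp2, both lowest without metestrus replicate 7. Between diestrus and metestrus they ran from -1.03 to 4.2 for Il13ra2 (0.03 without diestrus replicate 5; 1.79 by limma-voom) and from -0.21, without diestrus replicate 4, to 2.49 for Fst. Of single values under alternatives 569 kept direction and call, 66 lost a call, 27 gained one, 7 turned and 3 moved, these being mean levels of Lrp2 in deposited TPM, 0.786, 0.194 and 3.05. Estrus and diestrus share the numbers 3, 4 and 5, and deviations of same-numbered samples from their stage means correlated -0.0433, 0.0131 and -0.0166. Those of differently numbered samples ran from -0.0298 to 0.0441. With 3 samples a stage this check cannot show whether the numbers pair the samples, and the fit of 12 did not pair them. A replicate block on these 6 samples called 3 members, and the 6 samples without the block also 3, in both cases Acod1, Lrp2 and Fst; Acod1 (adjusted p = 0.000129 with the block, 0.00578 without) was not a call in the fit of 12, and Il13ra2, a call there, was under the filter in the 6. Of all genes 2793 were called over the stages and 1657 with counts rebuilt from TPM, 2744 and 1776 between diestrus and estrus, 1686 and 972 in the contrast. The number of genes called between diestrus and metestrus ran from 0 to 256 over the settings (27 as reported), that between metestrus and proestrus from 42 to 1080 (519), that between metestrus and estrus from 299 to 1364 (911), that between proestrus and diestrus from 519 to 1463 (1028) and that between estrus and proestrus from 1100 to 2788 (2064). At this depth 3 counts are 1.37 to 1.89 CPM, which limits Calca, Areg and all members in proestrus and estrus.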
